A study of Mus musculus with 10 samples.

Results

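The clustered protocadherins are cell-surface adhesion molecules encoded in 3 neighbouring gene clusters, alpha, beta and gamma, and they were followed here through the loss of a CTCF binding element in mouse embryonic stem cells. The members were the identifiers whose symbol is that of an alpha, beta or gamma protocadherin, chosen by name and not by any measured value. They numbered 58 of 52636 identifiers counted, with 14 in the alpha, 22 in the beta and 22 in the gamma cluster. The cells were of the E14 line, kept with LIF and inhibitors of MEK and GSK3 and then moved to medium lacking these, with retinoic acid at a labelled 2 µM for 24 h. Unedited cells (WT, 2 libraries) were set against cells without the element (CBE-KO, 2 libraries), and both groups had the same retinoic acid treatment. The element is named in the study for its contacts between nearby enhancers and the HoxA genes, a locus apart from the protocadherins, so the members ask what happened at another set of genes known to depend on CTCF. The labels do not say whether the CBE-KO cells were 1 clone or whether the libraries of a group came from separate cultures, so p-values measure only the spread between these libraries, which may be technical.

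Clustered protocadherins work as a combinatorial surface code. Each alpha or gamma mRNA joins 1 variable exon, which has its own promoter and encodes the extracellular part, to constant exons shared by the whole cluster, whereas each beta gene is a single exon of its own. In neurons a few promoters are chosen in each cell, through CTCF and cohesin, which bring a chosen promoter to distant enhancers, and through DNA methylation, which keeps unchosen promoters silent. The C-type isoforms (Pcdhac1, Pcdhac2, Pcdhgc3, Pcdhgc4 and Pcdhgc5) lie at the ends of the alpha and gamma clusters and follow other rules of choice, and Pcdhac2, Pcdhb1, Pcdhgc4 and Pcdhgc5 lack the conserved promoter element to which CTCF binds at the other members. Embryonic stem cells are known to express these genes weakly before neural differentiation.

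The 3 clusters lie side by side on mouse chromosome 18. In the RefSeq annotation of GRCm38.p6, the assembly also called mm10 that the submitters' processing notes name, the alpha models run from 36930285 to 37188897, the beta models from 37264998 to 37521419 and the gamma models from 37661775 to 37841873. The 14 alpha models all end within 1240 bases of each other and the 22 gamma models within 1384 bases, which is where the shared constant exons lie. A read from those exons therefore fits every gene of the cluster. How such reads were counted is not given in the sources used here. The beta models, 2.34 to 5.27 kb long, share no exon. Of 3 RefSeq models that run from the alpha cluster to the end of the gamma cluster, only Gm37013 was matched in the counts, with 0 in all 4 libraries. The 58 identifiers carried 57 symbols: 2 of them are paired with Pcdha11, and both had 0 counts everywhere.

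The libraries held 14108038 to 15632960 counts, and 3 counts, the floor below which a level was not measurable, corresponded to 0.192 to 0.213 CPM (counts scaled to a common library total). Such floors cover counting error only. The pluripotency genes Pou5f1 and Nanog had 11137 counts or more in every library. The Y-linked genes Ddx3y and Eif2s3y had 3 to 6 counts in the WT libraries and 779 to 920 in the CBE-KO libraries, a difference that lies outside the deleted element and whose part in the results was not tested. Between replicates, the chi-square per degree of freedom over all genes was 3.57 in WT and 2.82 in CBE-KO. Both values are larger than random sampling of reads would give, and between groups they were 22.2 to 25.6. Over the gamma members alone the values were 1.76 in WT and 1.53 in CBE-KO, against 1.21 to 1.77 between groups. By this measure, which compares how reads were shared among members, the gamma members differed about as much between replicates as between groups. For a given difference the measure grows with read depth, and the gamma members had at most 76 counts in a library. Their values therefore cannot be compared with those over all genes. Of 16005 genes tested with edgeR's quasi-likelihood test, 43.1% passed at a Benjamini-Hochberg adjusted p under 0.05, with 21.6% higher and 21.5% lower in CBE-KO.

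Reads of the 3 clusters came almost wholly from the gamma cluster, in both groups. The gamma members summed to 353 and 378 counts in WT against 583 and 514 in CBE-KO. The beta members summed to 13 and 6 counts in WT against 17 and 27 in CBE-KO. The alpha members summed to 4 and 1 in WT against 7 and 8 in CBE-KO. Each cluster's sum was thus higher in both CBE-KO libraries than in both WT libraries, but the alpha and beta sums rest on a few reads spread over many genes. At least 3 counts in all 4 libraries were reached by 20 of the 58 members, all of them gamma genes. In bulk RNA, fewer cells with a transcript and less transcript per cell cannot be told apart.

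**Figure D1:**
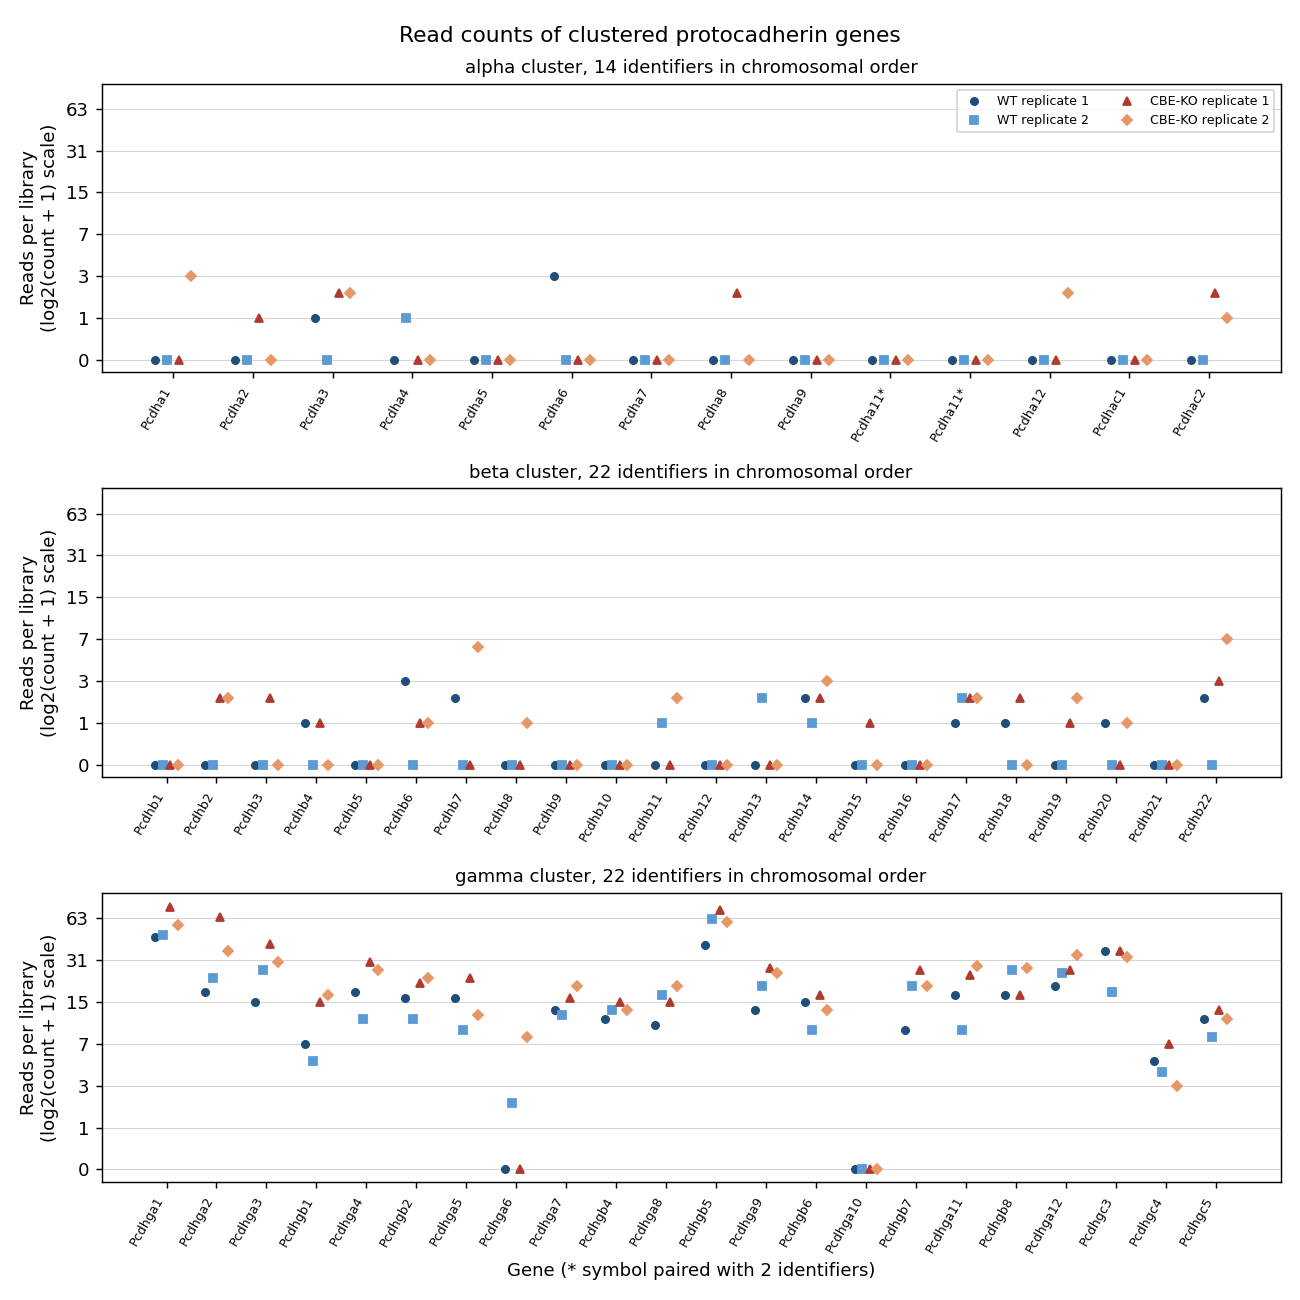
Reads per library on a log2(count + 1) scale for every alpha, beta and gamma identifier in chromosomal order, with 1 symbol for each of the 4 libraries. No alpha member exceeds 3 counts and no beta member exceeds 7, while 20 of 22 gamma members have at least 3 counts in every library, the exceptions being Pcdhga6 and Pcdhga10.

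The alpha cluster was at or under the floor throughout. Of its 14 identifiers, 6 had no count in any library, among them Pcdhac1, Pcdha5, Pcdha7 and Pcdha9. The other 8 had 1 to 5 counts over all 4 libraries. Pcdha3 had the most, with 1 and 0 counts in WT against 2 and 2 in CBE-KO. Pcdha6 had 3 and 0 in WT and none in CBE-KO, and Pcdha1 had none in WT against 0 and 3 in CBE-KO. The C-type isoform Pcdhac2 had 0 and 0 counts in WT against 2 and 1 in CBE-KO. None of the 14 had enough counts to be tested. At this depth 5 members had counts only in CBE-KO and 2 only in WT, all of them within the range in which 3 or fewer reads of a library decide. Among the 29243 identifiers with a count, 2998 had counts only in CBE-KO and 2256 only in WT.

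The beta cluster had few reads as well, without a member that stood out. Of 22 beta genes, 7 had no count in any library, among them Pcdhb1, Pcdhb5 and Pcdhb9. The other 15 had 1 to 12 counts in all, and no library held more than 7 counts of a member. Counts were only in CBE-KO for 5 of them and only in WT for 1. Pcdhb22, the last gene of the cluster, had 2 and 0 counts in WT against 3 and 7 in CBE-KO. Pcdhb14 had 2 and 1 against 2 and 3, and Pcdhb17 had 1 and 2 against 2 and 2. These last 2 were the members of the alpha and beta clusters with a read in all 4 libraries. Both CBE-KO libraries lay above both WT libraries for 2 alpha and 3 beta members, namely Pcdha3, Pcdhac2, Pcdhb2, Pcdhb19 and Pcdhb22, and for none the other way. Among all identifiers with a count, 26.6% had both CBE-KO libraries above both WT libraries and 24.2% had both below. None of the 22 beta genes entered the test. Without a filter on low counts, 23 alpha and beta members could be tested in edgeR. Of these 0 passed, 0 had an unadjusted p under 0.05, and the lowest adjusted p was 0.305. With at most 12 counts of a member over all 4 libraries, such a test could detect little, so it does not show that they were unchanged.

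The gamma cluster was read along its whole length at a low level. Of its 22 members, 19 had enough counts for the test. They had 5 to 76 counts in a library, and mean levels over the 4 libraries ran from 0.723 CPM for Pcdhgc5 to 3.95 CPM for Pcdhgb5. Of the 3 that were not tested, Pcdhga10 had no count in any library, while both of its neighbours were read. Since the treatment of reads shared by several genes is not given, this does not show that Pcdhga10 had no transcript. Pcdhga6 had 0 and 2 counts in WT against 0 and 8 in CBE-KO. Pcdhgc4, a C-type isoform known for its part in the survival of neurons, had 5 and 4 counts in WT against 7 and 3 in CBE-KO. The most read members were Pcdhgb5 and Pcdhga1, with 234 and 226 counts over the 4 libraries. Counts are not per length, so this order is one of reads and not of transcript levels. Across the 19 tested members, the log2 levels (log2 of CPM plus 0.1) of any 2 libraries had a Pearson correlation of 0.68 to 0.85, lowest between the 2 WT libraries. This is a description across genes of 1 cluster, which are not independent.

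**Figure D2:**
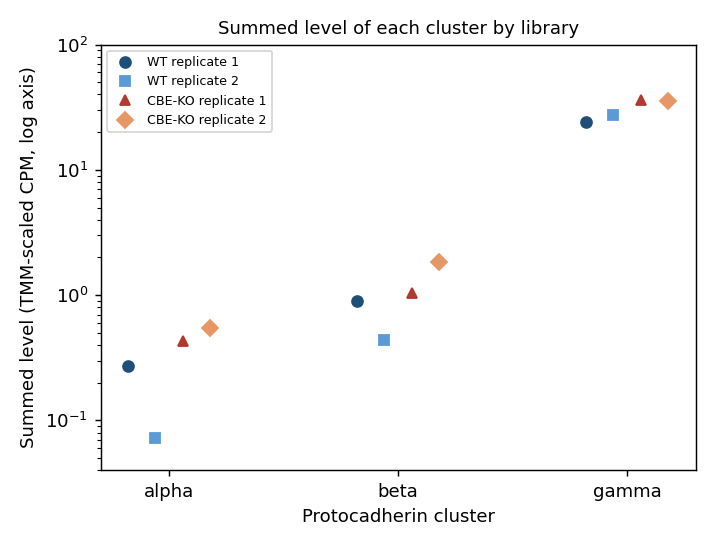
Summed TMM-scaled CPM of the alpha, beta and gamma members (log axis) in each of the 4 libraries. The gamma sum lies between 24.2 and 35.9 CPM in every library, while the beta sum reaches 1.86 and the alpha sum 0.550 at most.

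In CBE-KO the gamma sum was modestly higher. It was 24.2 and 27.5 CPM in WT and 35.9 and 35.3 CPM in CBE-KO, after scaling by trimmed means of M-values (TMM). The means were 25.8 ± 2.35 and 35.6 ± 0.422 CPM (SD, n = 2 each), a ratio of 1.38, or 1.48 when libraries were scaled by their totals. The groups did not overlap, and no p-value is given for a sum over chosen genes. By type, the 12 gamma A genes went from 12.7 and 14.7 CPM in WT to 21.1 and 20.3 in CBE-KO, a ratio of 1.51. The 7 gamma B genes had 7.87 and 10.6 against 11.3 and 11.8 CPM, a ratio of 1.25. The 3 gamma C genes had 3.56 and 2.18 against 3.45 and 3.23 CPM, so that their groups overlapped. Whether the types differ from each other was not tested.

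Taken gene by gene, 1 of the 19 tested gamma members passed. This share is below the 21.6% of all tested genes that were higher in CBE-KO. It is also below the 17.6% that were higher (6.82% lower) among the 3856 tested genes within the members' range of fitted abundance, edgeR's own average of the 4 libraries. Pcdhga2, the second gene of the cluster, had 18 and 23 counts in WT against 65 and 36 in CBE-KO. Its level rose from 1.45 ± 0.311 to 3.24 ± 1.08 CPM (SD, n = 2 each), with a log2 fold change of 1.17 ± 0.33 (SE; adjusted p = 0.00773 in edgeR). Both CBE-KO libraries were above both WT libraries, but replicate 1 was well above replicate 2. Without CBE-KO replicate 1, the log2 fold change was 0.77 and did not pass (edgeR adjusted p = 0.182), and with DESeq2 it was 1.15 and did not pass either (adjusted p = 0.102). Its adjusted p ran from 0.000553 to 0.182 over the alternatives.

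Pcdhgb1, the fourth gene, had the highest log2 fold change of the cluster. It had 7 and 5 counts in WT against 15 and 17 in CBE-KO, with no overlap between groups. Its log2 fold change of 1.28 ± 0.51 (SE) missed the threshold (edgeR adjusted p = 0.0506). It passed with upper-quartile scaling (adjusted p = 0.0448), with library totals alone (adjusted p = 0.0332) and with robust moderation (adjusted p = 0.0450). In DESeq2 its adjusted p was 0.347. It reached the count minimum through the CBE-KO libraries only, so its selection for the test leaned to that side.

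The next members by size of difference were read at similar depth. Pcdhga11 had 17 and 9 counts in WT against 24 and 28 in CBE-KO, with a log2 fold change of 0.88 ± 0.40 (SE; adjusted p = 0.0892 in edgeR). Without WT replicate 1 its log2 fold change was 1.36. Pcdhga11 met the count minimum in the CBE-KO libraries and not in both WT libraries, so its selection leaned to that side. Pcdhga4 had 18 and 11 against 30 and 26 counts (0.83 ± 0.38, SE; adjusted p = 0.0869 in edgeR). Pcdhga3 had 15 and 26 against 41 and 30 counts (0.66 ± 0.35, SE; adjusted p = 0.138 in edgeR), and it passed without WT replicate 2 (1.15, edgeR adjusted p = 0.0284). In all 3 the CBE-KO libraries lay above the WT libraries. Pcdhgb2, with 16 and 11 against 21 and 23 counts, and Pcdhga9, with 13 and 20 against 27 and 25, had log2 fold changes of 0.59 and 0.53 and also did not overlap.

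The most read members gave the narrowest intervals. Pcdhga1, the first gene of the cluster, had 46 and 48 counts in WT against 76 and 56 in CBE-KO, without overlap. The log2 fold change was 0.37, with a 95% interval from -0.13 to 0.86 (edgeR adjusted p = 0.224). Pcdhgb5 had 40 and 62 counts in WT against 73 and 59 in CBE-KO, and its groups overlapped. Its log2 fold change was 0.25, with an interval from -0.29 to 0.78. For both, a rise of 1 on the log2 scale lay outside the interval.

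Neither of the 2 tested C-type gamma isoforms passed, and their intervals were wide. Pcdhgc3, which is expressed outside neurons as well, had 36 and 18 counts in WT against 36 and 33 in CBE-KO. The log2 fold change was 0.24, with a 95% interval from -0.46 to 0.94 (edgeR adjusted p = 0.598), and it turned to -0.14 without WT replicate 2. Pcdhgc5 had 11 and 8 counts in WT against 13 and 11 in CBE-KO (0.22, interval from -0.81 to 1.24; edgeR adjusted p = 0.754). Its levels of 0.753 and 0.582 CPM in WT lay below the 0.801 and 0.756 CPM in CBE-KO, so its groups did not overlap, by a narrow margin. Together with the untested Pcdhgc4, these are the members next to the shared exons.

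The remaining 8 tested members had log2 fold changes between -0.08 and 0.54. Pcdhgb7 (0.54), Pcdhga7 (0.41), Pcdhga5 (0.36), Pcdhga12 (0.30), Pcdhga8 (0.26), Pcdhgb6 (0.20) and Pcdhgb4 (0.10) were positive, with adjusted p from 0.334 to 0.879. Of the 8, Pcdhga7 alone did not overlap between groups. Of the positive members, Pcdhga5, Pcdhga8, Pcdhgb4 and Pcdhgb6, and also Pcdhgb5, changed sign when 1 library was left out. Pcdhgb8, which RefSeq lists as a transcribed pseudogene, had 17 and 26 counts in WT against 17 and 27 in CBE-KO. The log2 fold change was -0.08 and became 0.02 with library totals alone.

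**Figure D3:**
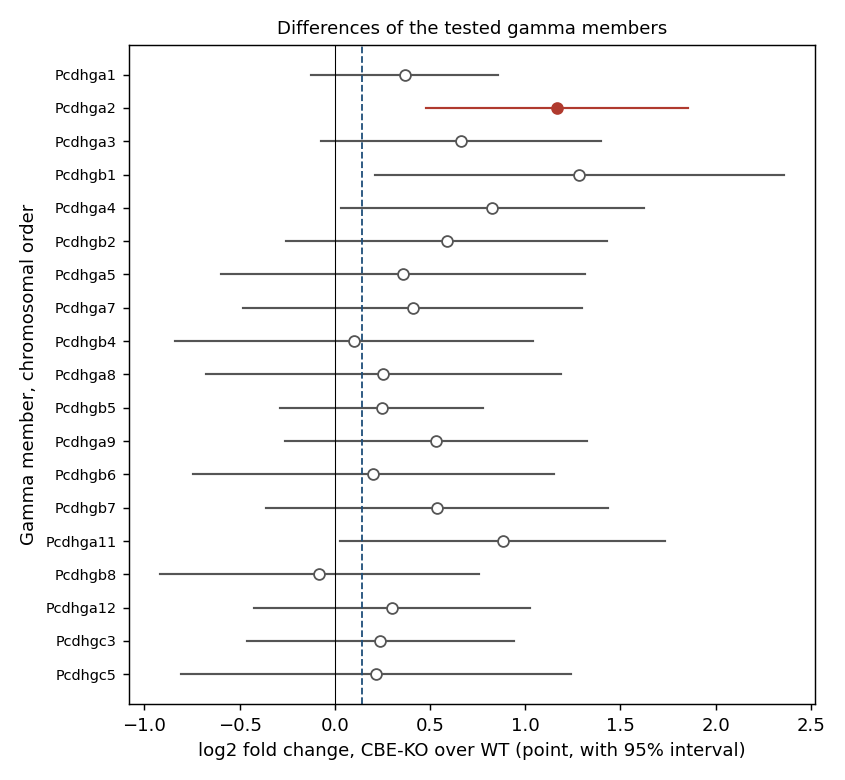
The log2 fold change of CBE-KO over WT (points) with its 95% interval (bars) for the 19 tested gamma members in chromosomal order, with the filled red point marking an edgeR adjusted p under 0.05 and the dashed line the median of 0.14 over all genes of similar fitted abundance. Pcdhga2 is the filled point, 15 of the other 18 intervals include 0, and Pcdhgb8 lies at -0.08.

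Seen together, the tested gamma members had small positive differences that mostly could not be told from 0 singly. The log2 fold change was positive for 18 of 19, with a median of 0.37. It was positive for 50.8% of all tested genes (median 0.01) and for 57.9% of the genes of similar fitted abundance (median 0.14). The groups did not overlap, with CBE-KO higher, for 10 members and in the other direction for 0. Over all tested genes the shares were 36.5% and 33.9%, and 38.7% of the genes of similar fitted abundance had CBE-KO higher. Of the 19 members, 7 met the count minimum in the CBE-KO libraries and not in both WT libraries, so the list itself leans to higher values there. These 7 were Pcdhgb1, Pcdhga5, Pcdhga8, Pcdhgb6, Pcdhgb7, Pcdhga11 and Pcdhgc5. Among the 12 that met the count minimum in both groups, 11 were positive, 7 did not overlap, 1 passed, and the median was 0.39. A minimum set on the mean of all 4 libraries (0.5 CPM) kept the same 19. Members of 1 cluster share a locus and possibly reads, and they are not replicates of a condition, so no test was made over them. In fits that left out 1 library, 15 to 18 of the 19 were positive, and with library totals alone all 19 were, against a median of all genes of 0.11 under that scaling.

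The intervals show which differences the counts left possible. For 15 of the 18 members that did not pass, the 95% interval included 0, and for the other 3 (Pcdhgb1, Pcdhga4 and Pcdhga11) it lay above 0. Of these 3, only Pcdhga4 met the count minimum in both groups. Pcdhgb1 and Pcdhga11 met it through the CBE-KO libraries, so their intervals come from a selection that leaned to higher values there. An upper bound of at least 1 on the log2 scale was reached by 14 of the 18, and a lower bound under -1 by 0. A rise by a log2 fold change of 1 in most single gamma genes was thus not excluded by these counts.

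Among genes beside the clusters, log2 fold changes were mostly negative on the alpha side and mostly positive on the gamma side. Of those that passed, more were lower than higher on both sides. Of the 23 of 24 listed genes matched in the tables, 22 were tested, of which 2 were higher and 8 lower in CBE-KO, with a median log2 fold change of -0.16 against 0.01 over all tested genes. Negative log2 fold changes were held by 11 of 12 tested genes before the alpha cluster, and positive ones by 7 of 9 after the gamma cluster, with medians of -0.34 and 0.10. The positive values after the gamma cluster ran from 0.01 (Rnf14) to 0.27 (Rell2), and 1 of these genes passed. Pcdh1, also on the gamma side, belongs to the list of non-clustered protocadherins and is not in these counts. Whether the sides differ was not tested. With library totals alone 4 were higher and 6 lower, with upper-quartile scaling 4 were higher, and in DESeq2 1 was higher. Taf7, a subunit of the general transcription factor TFIID whose gene lies between the beta and gamma clusters, had 1707 and 1641 counts in WT against 1660 and 1479 in CBE-KO. Its level fell slightly, by 0.21 ± 0.05 on the log2 scale (SE; adjusted p = 0.00283 in edgeR), but not past the threshold with library totals alone (adjusted p = 0.108). Slc25a2, the other gene between those clusters, had 3 and 9 against 8 and 10 counts and was not tested.

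**Figure D4:**
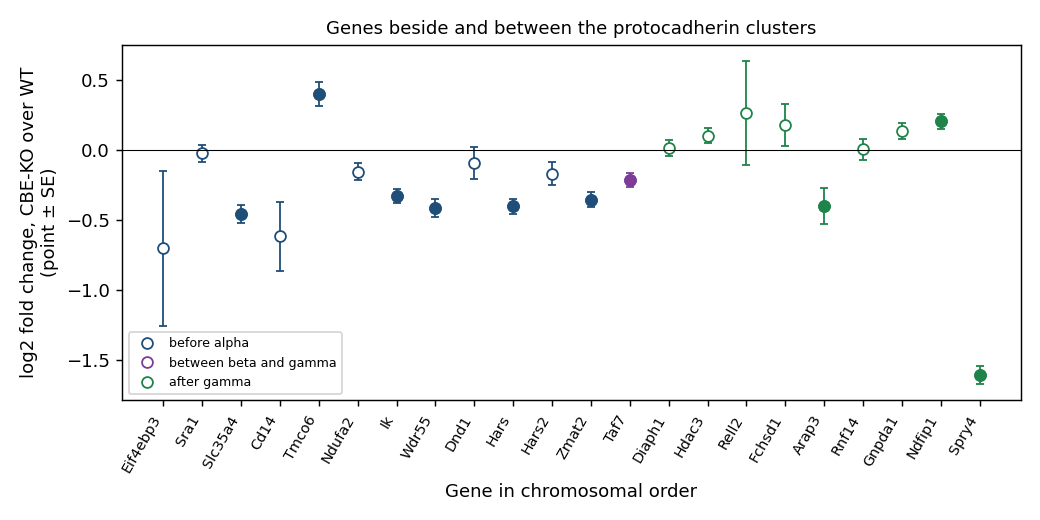
The log2 fold change of CBE-KO over WT (points, with SE as bars) for 22 tested genes before the alpha cluster, between the beta and gamma clusters and after the gamma cluster, in chromosomal order, with filled points passing an edgeR adjusted p under 0.05. On the alpha side 5 of 12 were lower and 1 higher, on the gamma side 2 of 9 were lower and 1 higher, and Spry4 is the lowest at -1.61.

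On the alpha side, 5 of 12 tested genes were lower and 1 higher. Slc35a4 and Wdr55 fell by 0.45 and 0.41 on the log2 scale, and Tmco6 was higher by 0.40. Zmat2, the gene nearest to the alpha cluster among those listed, fell by 0.35 (edgeR adjusted p = 5.56e-05). On the gamma side, 2 of 9 were lower and 1 higher. Diaph1 and Hdac3, the first genes after the gamma cluster, had log2 fold changes of 0.02 and 0.10 that did not pass (adjusted p = 0.854 and 0.137). Spry4, which encodes an inhibitor of receptor tyrosine kinase signalling and lies farther away, fell by 1.61 ± 0.06 (SE; adjusted p = 3.48e-12 in edgeR), from 111 and 117 CPM in WT to 36.0 and 38.8 in CBE-KO.

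Genes known to act on protocadherin promoters moved in both directions. Of 30 such genes, all tested, 3 were higher and 9 lower in CBE-KO, with a median log2 fold change of -0.03. The background for this list and those below was 21.6% of all tested genes higher and 21.5% lower, with a median of 0.01. With library totals alone 11 of the 30 were higher and 7 lower. Leaving out CBE-KO replicate 1 left 1 higher, Smchd1, and leaving out WT replicate 2 gave 5. The genes of the de novo DNA methylation machinery were lower. Dnmt3l, a cofactor of the methyltransferases, had 528 and 534 CPM in WT against 166 and 159 in CBE-KO, with a log2 fold change of -1.71 ± 0.05 (SE; adjusted p = 3.85e-14 in edgeR). Dnmt3b, the methyltransferase known to methylate protocadherin promoters in early development, had 186 and 192 CPM against 86.0 and 86.8 (-1.13 ± 0.05, SE; adjusted p = 1.74e-11 in edgeR). Dnmt3a fell by 0.57 and the histone methyltransferase gene Ehmt2 by 0.70. These fell under each scaling tried.

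Smchd1, a chromosomal protein known to repress the protocadherin clusters, was higher. It had 57.8 and 57.9 CPM in WT against 70.6 and 72.9 in CBE-KO, with a log2 fold change of 0.31 ± 0.06 (SE; adjusted p = 0.000550 in edgeR). Ctcf had 2419 and 2172 counts in WT against 2505 and 2309 in CBE-KO, and its log2 fold change of -0.05 did not pass (edgeR adjusted p = 0.472) and became 0.06 with library totals alone. Of the cohesin subunits, Rad21 (0.16) and Stag1 (0.23) were higher and Smc1a and Smc3 did not pass. Without CBE-KO replicate 1 neither Rad21 (edgeR adjusted p = 0.164) nor Stag1 (edgeR adjusted p = 0.109) passed, and in DESeq2 Stag1 did not (adjusted p = 0.0931). The part of any of these in the gamma values was not tested.

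The non-clustered protocadherins, encoded apart from the clusters by genes with their own promoters, were too few in the test to show a common direction. Of 12, 3 had no count and 3 were tested, of which 1 was higher and 1 lower, with a median of -0.67. That median is the value of Pcdh8, which had 51 and 37 counts in WT against 36 and 24 in CBE-KO. Its groups did not overlap, but it did not pass (edgeR adjusted p = 0.0737). Pcdh1, which lies on the gamma side of the clusters, fell from 309 and 309 counts in WT to 198 and 213 in CBE-KO (-0.70 ± 0.12, SE; adjusted p = 0.000142 in edgeR). Pcdh19 had 24 and 23 counts in WT against 41 and 47 in CBE-KO (0.79 ± 0.30, SE; adjusted p = 0.0415 in edgeR), and it did not pass in DESeq2 (adjusted p = 0.303) or without any 1 of the 4 libraries. Among 19 other cadherins and nectins, 11 were tested, with 3 higher, 3 lower and a median of -0.05. Of the lower genes Cdh4, Cdh3 and Fat1, only Cdh4 passed in DESeq2, with library totals alone and without CBE-KO replicate 2. On the log2 scale Cdh2, or N-cadherin, was higher by 1.43 and Cdh4 fell by 1.95. Cdh1, or E-cadherin, was also higher, by 0.28 (edgeR adjusted p = 9.55e-05), with 348 and 341 CPM in WT against 418 and 417 in CBE-KO. Of 16 genes for partners that bind, cut or signal from protocadherins, 6 were higher and 2 lower, with a median of 0.12, and 10 and 1 with library totals alone. In DESeq2 3 were higher and 0 lower, and without WT replicate 1, CBE-KO replicate 1 or CBE-KO replicate 2 in turn 1 was lower. Fyn, a Src-family kinase, was higher by 0.52, and Ptk2b, a kinase related to focal adhesion kinase, fell by 0.69 but did not pass in DESeq2 (adjusted p = 0.0543) or without CBE-KO replicate 1 (adjusted p = 0.0658).

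Since protocadherin clusters are used most by neurons, markers of neural and other cells were read beside the gamma values. Of 16 neuron markers, 11 were tested, 4 were higher and 3 lower, with a median of -0.14. Their summed level was 427 to 462 CPM in WT and 349 to 352 CPM in CBE-KO. Most of that sum came from Stmn2, a tubulin-binding protein, with 343 and 318 CPM in WT against 249 and 253 in CBE-KO, and from Tubb3, neuronal beta-tubulin, with 74.3 and 64.5 against 40.4 and 41.2. The sum thus follows these 2 genes, while Gap43, Isl1, Map2 and Syn1 were higher, of which Gap43 and Syn1 passed in DESeq2 as well. Isl1, with 9 and 7 counts in WT against 42 and 16 in CBE-KO, met the count minimum through the CBE-KO libraries only. Gap43, a growth cone protein, was 2.27-fold higher, and Tubb3 fell by 0.77 on the log2 scale. Dcx and Snap25, which mark young and mature neurons, had 0 to 3 counts in each library. Of 10 neural progenitor markers, 6 were tested, 5 were higher (3 in DESeq2) and 0 lower, with a median of 1.08. Their summed level was 37.3 to 38.4 CPM in WT and 67.4 CPM in both CBE-KO libraries. Sox3, a transcription factor of early neural cells, was higher by 1.44 and Pax6, of neural progenitors, by 1.96. Zfp521 had the largest rise, by 3.59, from 4 and 4 counts in WT to 54 and 53 in CBE-KO. Zfp521 and Pax6, the latter with 10 and 9 counts in WT, met the count minimum through the CBE-KO libraries only. Their selection for the test, and with it the median of the list, leaned to that side. Nes alone of the 6 was negative, at -0.31, and did not pass (edgeR adjusted p = 0.0687). It had 13.6 and 13.7 CPM in WT against 10.8 and 11.2 in CBE-KO, without overlap. Hes5, Fabp7, Olig2 and Pax3 had no count in WT and 0 to 4 in CBE-KO. The part of a change in cell makeup in the gamma values was not tested.

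Of 10 pluripotent cell markers, all tested, 3 were higher and 6 lower, with a median of -0.34 and sums of 8176 to 8453 CPM in WT and 7869 to 8002 CPM in CBE-KO. Utf1 fell by 1.67 on the log2 scale and Dppa5a was higher by 0.28, the 1 gene still higher without CBE-KO replicate 1. Of 10 extraembryonic endoderm markers, 6 were higher and 1 lower, with a median of 0.36 and sums of 226 to 239 CPM in WT and 284 to 289 CPM in CBE-KO. Gata4 was higher by 0.72 and Amn fell by 1.15. Of 8 fibroblast markers, 3 were tested and 2 were higher (1 in DESeq2), with a median of 0.88 and sums of 14.7 to 16.7 CPM in WT and 21.1 to 24.4 CPM in CBE-KO. The higher genes were Col1a1, with 48 and 50 counts in WT against 95 and 100 in CBE-KO, and Fbn1, with 49 and 51 against 102 and 99. Below the count minimum, Col1a2 had 0 and 1 against 12 and 8, and Col3a1 had none in WT against 8 and 1. Postn, Lum and Dcn had 0 counts in every library. The part of these cell types in the gamma values was not tested.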

How the data were processed

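Per the submitters' processing notes, the series used HISAT2 2.1.0, HTSeq 0.9.1, DESeq2 1.18.1, Bowtie2 2.3.1 and the mm10 build, with no role stated. The deposited values are raw read counts per Ensembl gene, 1 table per library, without normalization. Counting mode, strand use, treatment of reads shared by several genes and annotation release are not given in the sources used here. Of 52636 identifiers, 52403 matched a symbol. The 6 Capture-C libraries were not analysed here.

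Genes were kept with edgeR's filterByExpr defaults (16005 genes; a minimum near 0.679 CPM in 2 libraries) and scaled by TMM, with factors of 0.959 to 1.04. Tests used edgeR 4.0.16 in R 4.3.3 (glmQLFit and glmQLFTest, two-sided, without a covariate), and p-values were adjusted by Benjamini-Hochberg over all tested genes. Levels are TMM-scaled CPM. DESeq2 1.42.0, other scalings and filters, stricter thresholds, robust moderation, the replicate block and leaving out each library were alternatives. Same-numbered libraries deviated from their group means with a correlation of 0.0366. Scripts were tested on simulated counts.

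The members, lists and tests were chosen with earlier results of these data known. Named genes were every tested member, and Ctcf, Smchd1, Taf7 and Slc25a2. From each other list, up to 4 passing genes with the largest absolute log2 fold change were selected, but not all are named here. Among those left out are Cyfip2, Tdgf1, Sox7 and Dab2, so the genes named from a list need not have its largest changes. Pou5f1, Nanog, the Y-linked genes and further list members, among them Rad21, Stag1, Cdh3 and Fat1, were added after their values were seen. Sequences of the members are not used here.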

Additional observations from a re-analysis of the deposited data

How the results depend on the processing

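The number of clustered protocadherins higher in CBE-KO, 1 with TMM scaling in edgeR, was 0 in DESeq2, where Pcdhga2 did not pass, and 2 with upper-quartile scaling, with library totals alone, with robust moderation and with the replicate block plus upper-quartile scaling, where Pcdhgb1 passed as well. With the replicate block alone it stayed at 1, and the block changed the call of no gamma member. No label ties libraries of the same number to each other, and their deviations had a correlation of 0.0366. With the block the log2 fold change of Pcdhga2 was 1.15. Leaving out 1 library gave 0 to 2 higher members, 0 of them without CBE-KO replicate 1; these fits assume that the lone library of a group varies like the other group. No member was lower in any setting. Members with at least 10 counts in all 4 libraries numbered 13, against 20 at 3 counts, and 20 without any 1 library.

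Leaving out libraries moved log2 fold changes from -0.14 to 0.77 for Pcdhgc3, -0.53 to 0.30 for Pcdhgb8, -0.080 to 0.57 for Pcdhgb6, -0.092 to 0.78 for Pcdhga5, -0.054 to 0.27 for Pcdhgb4, -0.073 to 0.64 for Pcdhgb5 and -0.11 to 0.73 for Pcdhga8. With library totals alone Pcdhgb8 was 0.0225 and Ctcf 0.0565. The cause was not tested.

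Of all genes, 3461 were higher and 3434 lower, against 1766 higher in DESeq2, and 975 higher and 408 lower when a log2 fold change of 1 or more in size was required. Leaving out 1 library gave 2648 to 3164 higher and 2737 to 3336 lower. Of the genes in the other lists, 35 were higher and 33 lower, against 21 higher in DESeq2, 6 higher and 8 lower at that fold change, and 25 to 35 higher and 28 to 34 lower without 1 library. At the depth of the gamma members, a log2 rise of 1 lay within the interval of 14 of the 18 that did not pass, while 17.6% of all genes of similar fitted abundance passed as higher.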
